A study of Homo sapiens with 6 samples.

Results

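Poly(A) 3′-seq was used to map polyadenylated 3′ ends in IMR-32 cells, a human neuroblastoma line with amplified MYCN. Of the peaks in the resulting list, those described here lay in an intron of a protein-coding gene and directly before a genomic stretch of adenines. A peak was a member of this class when its summit lay in an intron, outside every annotated exon and transcript-end window (200 bp before to 600 bp after a transcript end), and all genes at the summit lay on 1 strand. In addition, a window of 25 bases with at least 18 A on the gene strand had to lie within 50 bp past the downstream edge of the peak, which is named the 3′ edge in what follows. The rule was met by 31470 peaks of the 200023 in the list, and of the 106172 peaks in introns of protein-coding genes on 1 strand.

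The libraries came from cells given the solvent DMSO (2 libraries), 400 nM THZ531 for 2 h (2 libraries) or 400 nM THZ531 for 6 h (2 libraries). THZ531 is a covalent inhibitor of the transcriptional kinases CDK12 and CDK13, and the 2 libraries of a group are biological replicates of 1 cell line. The authors called peaks once, on the merged reads of all samples, which were taken here to be these 6 libraries. The list gives no value per library, no strand and no depth, so no value below compares DMSO with THZ531 and none has a replicate error. As a check of the cell line, the neuroblastoma genes MYCN, HAND2, GATA3, ISL1, TH, DBH and CHGA were looked up, and each had a peak at a transcript end, with 19 to 100 reads at the summit.

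Most human messenger RNAs are cut downstream of a hexamer such as AATAAA and given a poly(A) tail, and libraries of this kind are primed on that tail with oligo(dT). Oligo(dT) is also known to anneal to adenine tracts inside a transcript, in which case the read starts next to a genomic stretch of A rather than at a 3′ end. Introns hold many such tracts, and a large part of them are tails of Alu elements, short retroposons that descend from 7SL RNA (gene RN7SL1) and end in an A-rich tail. Sequence is called Alu-like here when the 100 bp that end at the 3′ edge, or before a stretch, share at least 3 distinct 8-base words with the last 100 bases of RN7SL1. A peak list cannot tell a tail added to a cut transcript from a tail read from the genome, and no value below assigns a peak to either.

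Sequences of several members are given here to show the forms the class took. Each runs from 60 bases before the 3′ edge to 50 bases past it, 5′ to 3′ on the gene strand (GRCh38), with the first of the most A-rich windows of 25 bases in capitals. ATXN1 held a member tied as the third tallest, NAV2 the tallest member with 25 A, and BLM and BRCA1 are genes that the study discusses. The CHST8 member, also tied as the third tallest, lay inside a tandem repeat of a unit of 1 G and 3 A.
ATXN1 (chr6:16759494-16759603, minus strand): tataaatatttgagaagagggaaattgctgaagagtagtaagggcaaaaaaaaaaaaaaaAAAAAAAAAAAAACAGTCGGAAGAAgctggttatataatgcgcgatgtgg
NAV2 (chr11:19351748-19351857, plus strand): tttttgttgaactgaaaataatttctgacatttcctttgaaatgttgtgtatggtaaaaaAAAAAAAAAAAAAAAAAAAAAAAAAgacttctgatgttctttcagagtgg
BLM (chr15:90732676-90732785, plus strand): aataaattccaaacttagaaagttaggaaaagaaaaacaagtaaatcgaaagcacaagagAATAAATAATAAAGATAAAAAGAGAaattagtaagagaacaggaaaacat
BRCA1 (chr17:43123320-43123429, minus strand): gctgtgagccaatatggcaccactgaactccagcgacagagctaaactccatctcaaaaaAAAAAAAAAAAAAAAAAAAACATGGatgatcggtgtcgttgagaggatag
CHST8 (chr19:33757395-33757504, plus strand): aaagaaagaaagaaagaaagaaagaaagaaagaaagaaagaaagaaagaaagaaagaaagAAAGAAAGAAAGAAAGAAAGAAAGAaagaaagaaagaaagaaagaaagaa

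Members made up 29.6% of the 106172 intronic peaks (95% Wilson interval 29.4 to 29.9%, which covers counting error only). The same search on the strand that the gene does not transcribe, past the other edge of the peak, found a stretch at 2957 of the same peaks, or 2.79%. The stretch was therefore 10.6 times as frequent on the gene strand, and only 92 peaks had one on both. Peaks at transcript ends had a stretch in 9.07% of 30969 cases and peaks in exons outside transcript ends in 7.32% of 15240 cases. The number of A is what the rule used, so these shares describe the class and are not a test of it. The number depended on where the windows lay, with 13135 peaks meeting the rule within 50 bp past the summit and 47733 within 50 bp on both sides of the 3′ edge. On the 24 chromosomes the share of intronic peaks that were members ran from 25.4% on chromosome 19 to 34.5% on chromosome 16. In introns shared by genes of both strands, where the gene strand could not be set, 34.7% of 7794 peaks had a stretch on either strand past the matching edge. Between genes the share was 34.3% of 20295 peaks, and among the intronic peaks counted in the same way it was 32.3%.

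The stretch lay next to the 3′ edge of the peak. Windows were sought only past that edge, so a stretch that crossed it was counted from the edge on. Where the best window started was therefore in part set by the search. The best window started within the first 5 bases past the 3′ edge in 96.4% of members, and 29426 members (93.5%) had an unbroken run of at least 6 A that started at a median of 2 bases before the edge (quartiles 7 before and 1 past it). The longest run within 50 bp had a median of 12 A (quartiles 7 and 17) and reached 50. Within the best windows, G made up 43.8% of the bases that were not A, T 33.8% and C 22.4%. In the ATXN1 sequence the run crossed the edge in this way. Adenine stood at 92.7% of members at base 3 past the edge and fell to 38.7% at base 30, against 57.5% and 31.8% in the other intronic peaks and 45.6% and 28.4% at transcript ends. Upstream, adenine rose to 39.3% at 20 bases before the edge in members, where it was 39.7% in the other intronic peaks and 44.4% at transcript ends.

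**Figure D1:**
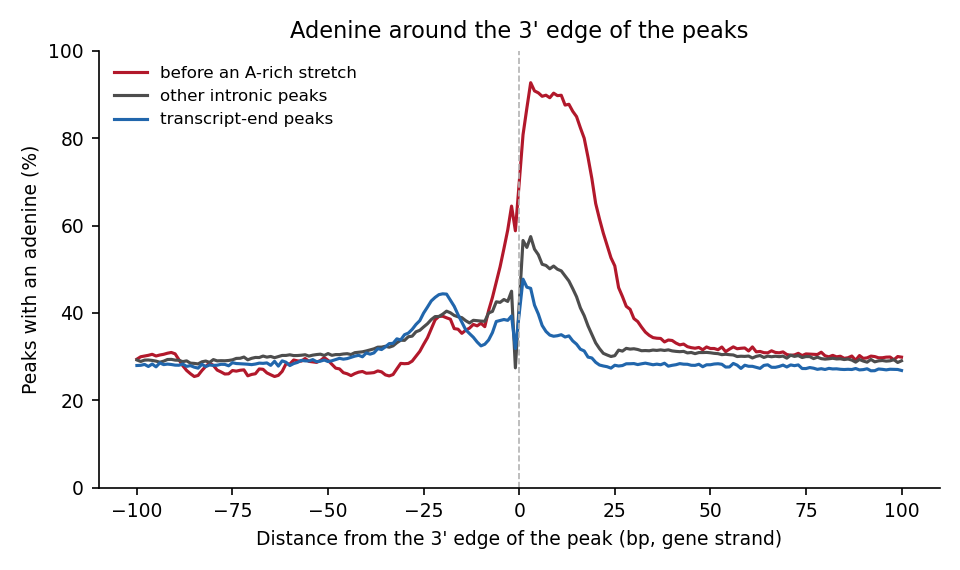
Share of peaks with an adenine at each base (y axis, %) against the distance from the 3′ edge on the gene strand (x axis, bp) for the 31470 members, the other intronic peaks and the peaks at transcript ends. Adenine reaches 92.7% at base 3 past the edge in members, which the rule selected, and all 3 groups show a lower rise near 20 bases before the edge.

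The limit of 18 A cut through a continuous range. There were 8845 intronic peaks with 17 A, just outside the rule, and 7822 with 18 A, just inside it, with a median of 9 reads at the summit in both. The tallest of those with 17 A lay in an intron of GATA3 and had 66 reads. Members with at least 22 A numbered 6822 (21.7%), and 687 had 25 A in 25 bases. Both of the study's marks for a false peak, at least 22 A and no polyadenylation signal hexamer in the 100 bp upstream, were met by 5670 members (18.02%). Another 15454 members (49.1%) had 18 to 21 A and no hexamer. By its methods, the study removed peaks with both marks after peak calling, and the list used here still held those 5670.

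How often a stretch had a peak was asked from the genome's side. Introns of the protein-coding genes held 286704 separate A-rich stretches on the gene strand, of which 220759 lay in genes with a peak at a transcript end, called detected genes. In detected genes 13.5% of the stretches (13.4 to 13.7%) had an intronic peak ending before them. On the opposite strand of the same introns, 0.636% of 373246 stretches did. In genes with no transcript-end peak the share on the gene strand was 2.20% and on the opposite strand 0.597%.

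The share climbed with each added adenine. The search counted a stretch only when a window of at least 18 A lay wholly past the edge of a peak. A stretch near that limit was missed where the edge lay inside it, so the climb was in part set by the search. How large that part was was not tested. Stretches with 18 A had a peak in 4.31% of cases, those with 20 A in 13.03%, those with 22 A in 24.9% and those with 25 A in 43.2% (42.2 to 44.3%). On the opposite strand it went from 0.317% at 18 A to 2.02% at 25 A. A longer unbroken run went with a higher share at the same number of A, up to a point: among stretches with 18 A, 3.68% of those whose longest run was at most 7 A had a peak, against 6.62% of those with a run of 12 to 15 A and 6.11% with a longer one. At 21 A the corresponding values were 16.3%, 19.7% and 16.7%.

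**Figure D2:**
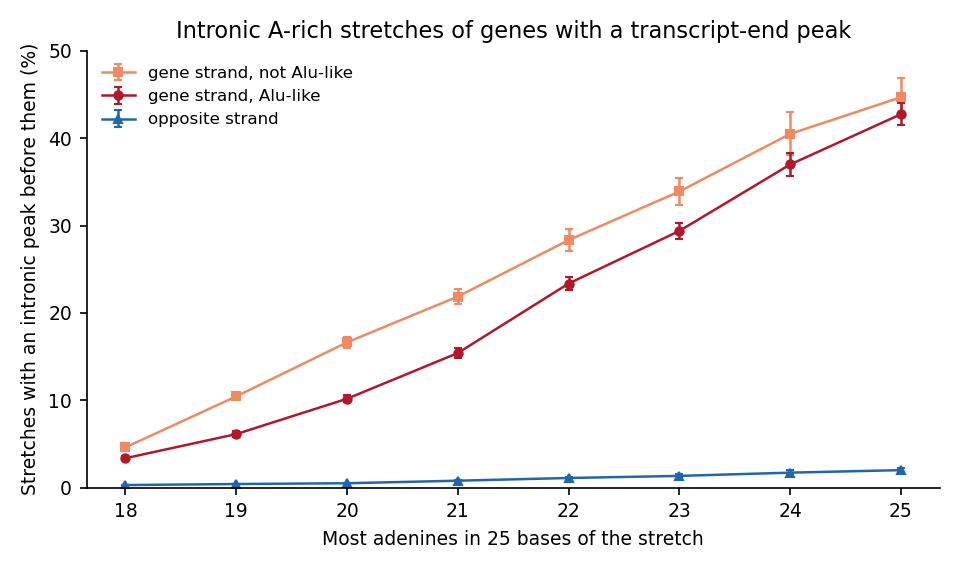
Share of intronic A-rich stretches with a peak before them (y axis, %) against the most A in 25 bases of the stretch (x axis), for stretches after Alu-like and other sequence on the gene strand and for all stretches of the opposite strand, in detected genes. Bars are 95% Wilson intervals. The shares on the gene strand climb to above 42% at 25 A, and those on the opposite strand stay at or below 2.02%.

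The share varied with the height of the gene's transcript-end peak. It was 5.96% in genes whose tallest transcript-end peak had at most 9 reads, 11.97% at 10 to 14 reads, 14.3% at 15 to 19 reads, 15.8% at 20 to 29 reads, 15.4% at 30 to 39 reads and 14.8% at 40 or more. It did not rise further above 29 reads. On the opposite strand the share lay between 0.583% and 0.682% in all of these bins. Across the 5256 detected genes with at least 10 stretches, the share of stretches with a peak and the height of the tallest transcript-end peak had a Spearman rank correlation of 0.21. This value is across genes, which are not independent replicates.

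Members were low. At the summit they had a median of 9 reads (quartiles 6 and 12, highest 74), the other intronic peaks 10 reads (7 and 15, highest 98) and the transcript-end peaks 16 reads (10 and 24, highest 162). A read here is an extended read over the summit, solved from the fold enrichment and p-value in the list, and if the peak caller's default of 1 read per start position was kept, the number counts start positions rather than molecules. At least 20 reads were reached by 4.88% of members, 12.02% of the other intronic peaks and 37.2% of the transcript-end peaks. Read the other way, members were 35.2% of the intronic peaks with 3 to 5 reads, 33.6% of those with 6 to 9, 29.7% with 10 to 14, 23.7% with 15 to 19, 16.95% with 20 to 29, 7.20% with 30 to 49 and 4 of the 203 with 50 or more (1.97%, interval 0.769 to 4.96%). The share with a stretch on the opposite strand fell as well, from 5.01% at 3 to 5 reads to 1.43% at 20 to 29 reads. The order of the medians rested on where the stretch was sought: with windows past the summit instead of the 3′ edge, members had a median of 11 reads and the other intronic peaks 9. Members were also narrow, with a median width of 103 bp against 108 bp and 117 bp, where 100 bp is the length to which each read was extended. A width of at most 104 bp was found in 57.4% of members, 39.9% of the other intronic peaks and 26.9% of the transcript-end peaks.

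**Figure D3:**
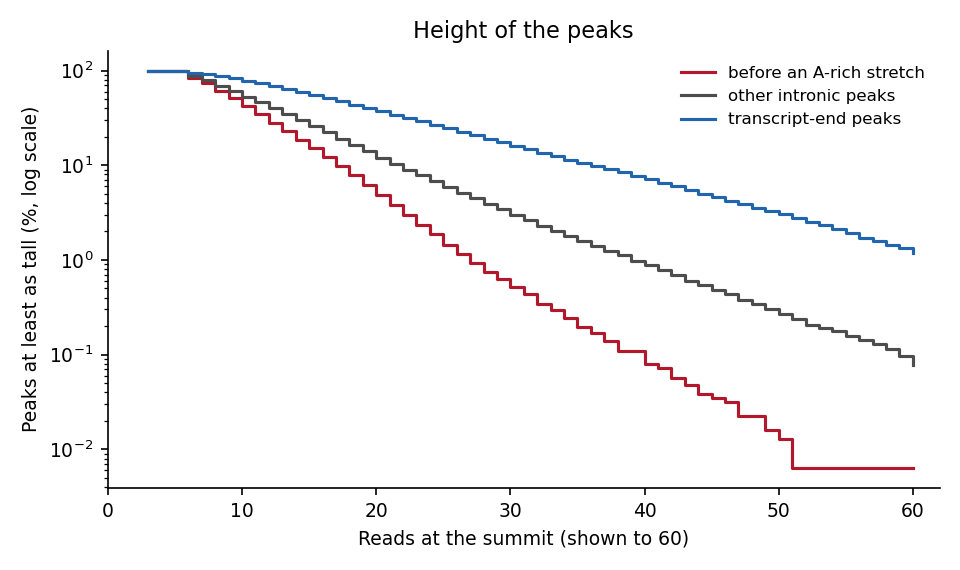
Share of peaks with at least a given number of reads at the summit (y axis, %, log scale) against that number (x axis, shown to 60 reads). At 30 reads the curves stand at 0.518% for members, 3.01% for the other intronic peaks and 16.02% for transcript-end peaks.

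The tallest member, with 74 reads at the summit, lay in intron 1 of FSCN1 (fascin, an actin-bundling protein), 4.84 kb from its start. Its fold over the local background was 4.73, and the gene's tallest transcript-end peak had 48 reads. ASS1, which encodes the urea cycle enzyme argininosuccinate synthase, had a member of 66 reads in intron 1 with a fold of 4.45, and its transcript-end peaks reached 56 reads. In both genes the fold was below the median of members (5.85), since the background was 14.8 reads at the FSCN1 summit and 14.1 at that of ASS1, against a median of 0.5. The CHST8 member, in intron 3 of a gene for an N-acetylgalactosamine sulfotransferase, had 50 reads and a fold of 21.2, the highest of all members. The mapping kept reads with several places in the genome, and whether reads of this repeat belonged to another copy was not tested. The member of ATXN1 (ataxin 1) lay 1.86 kb from the start in intron 1, with 50 reads and a fold of 15.1. The gene's tallest transcript-end peak had 20 reads. B2M, the light chain of MHC class I, had 49 reads at a member in intron 1 and 56 at its transcript end.

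Members and other intronic peaks differed in the sequence before the edge, which the rule did not read, although both measures of it moved with the number of A that the rule counts. At least 1 of the study's 12 hexamers (AAGAAA or AATAAA or AATACA or AATAGA or AATATA or AATGAA or ACTAAA or AGTAAA or ATTAAA or CATAAA or GATAAA or TATAAA) lay in the 100 bp before the edge of 32.9% of members, 63.5% of the other intronic peaks and 76.4% of the transcript-end peaks. On the opposite strand of the same 100 bp the shares were 17.3%, 43.4% and 52.8%. The share with a hexamer was 55.5% at 17 A, 47.3% at 18 A, 30.7% at 20 A and 17.3% at 25 A. With windows past the summit as the rule, members had a hexamer in 55.9% of cases. AATAAA alone was found in 10.4%, 29.3% and 44.9%. Its most frequent start between 40 and 10 bp before the edge was 23 bp before it at transcript ends and 22 bp at the other intronic peaks, but 11 bp at members. In members AATAAA was more frequent still nearer the edge, starting 7 bp before it in 1.255% of them, against 0.915% at 11 bp. Several of these hexamers, such as AAGAAA, can arise in any A-rich sequence, and a match marks letters and not a used signal.

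Alu-like sequence lay before 53.4% of members (52.9 to 54.0%), 11.7% of the other intronic peaks and 8.002% of the transcript-end peaks. Of all A-rich stretches in the introns on the gene strand, with a peak or without, 45.1% followed Alu-like sequence, and of those without a peak 44.1%. On the opposite strand of the same bases the shares were 0.435%, 3.67% and 1.58%, so in members the element ran almost always in the gene's direction. The rule asks for A on the gene strand, where the tail of such an element lies, so this direction was in part set by the rule. The 8-base words that set members furthest apart from other intronic peaks were of this kind: TGCAGTGA stood before 35.7% of members and 6.88% of the others, and CAGCCTGG, which is in RN7SL1, before 35.7% and 7.28%. The share of Alu-like members rose from 37.2% at 18 A to 57.9% at 20 A and 68.3% at 22 A, and it was 68.4% at 25 A. Just outside the rule, at 17 A, it was 26.7%.

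Alu-like members had fewer hexamers than the others. A hexamer was found before 14.3% of the 16819 Alu-like members and 54.2% of the 14651 others. Among the remaining intronic peaks, the corresponding shares were 38.1% and 66.9%, so members had fewer hexamers within both classes. The median was 9 reads for Alu-like members and 8 for the others, and 4.85% and 4.93% had at least 20 reads. High-scoring members had hexamers more often than members as a whole. Of the 370 members with −log10 q of at least 20, 62.2% had a hexamer (57.1 to 66.9%) and 35.9% were Alu-like, and on the opposite strand of the same 100 bp 17.3% had a hexamer.

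Stretches after Alu-like sequence had a peak in 15.3% of cases and other stretches in 11.9%. At every number of A from 18 to 25 the order was the other way round. At 18 A it was 3.39% after Alu-like and 4.63% after other sequence, at 20 A 10.2% and 16.6%, and at 22 A 23.4% and 28.3%. At 25 A the values were 42.7% and 44.7%, with overlapping intervals. The Alu-like stretches had more A: 6128 of the 103991 held 25 A, against 2041 of the 116768 others. The others can include stretches after Alu elements that share fewer than 3 words with the end of RN7SL1. How many did was not tested, so this is not a split of Alu from all other sequence.

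Members were spread more evenly along genes than the other intronic peaks. In the 2257 detected genes of 100 to 300 kb, each gene was cut into 10 equal bins from its start to its end. The number of members per Mb of intron was 36.6 in bin 1, 39.5 in bin 2, between 36.96 and 41.7 in bins 3 to 9 and 35.7 in bin 10. The other intronic peaks numbered 140.3 per Mb in bin 1, 92.5 in bin 2, 81.2 to 88.5 in bins 3 to 9 and 68 in bin 10. In the 635 genes of over 300 kb, members went from 33.9 per Mb in bin 1 to 32.9 in bin 9 and 27.9 in bin 10, and the other intronic peaks from 82.3 to 58.3 and 49.99. In the genes of 100 to 300 kb the share of stretches with a peak was 13.9 to 15.5% in bins 1 to 9 and 12.5% (11.7 to 13.4%) in bin 10. In the genes of over 300 kb this share was lower towards the end, with 14.7% (13.9 to 15.5%) in bin 1, 12.9% (12.2 to 13.6%) in bin 9 and 10.7% (9.97 to 11.4%) in bin 10.

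**Figure D4:**
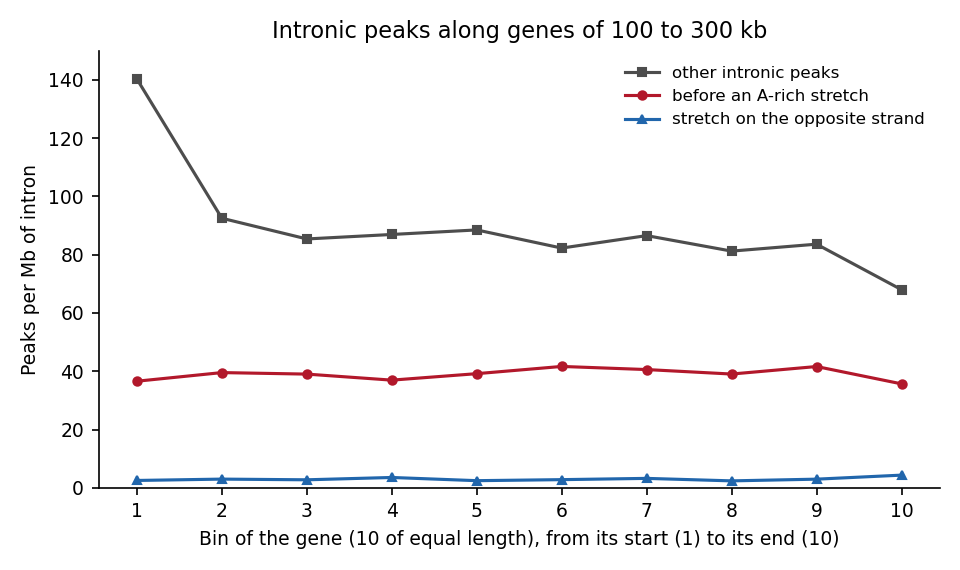
Intronic peaks per Mb of intron (y axis) by bin of the gene, 10 to a gene and of equal length, from its start to its end (x axis) in the 2257 detected genes of 100 to 300 kb, for members, other intronic peaks and peaks with a stretch on the opposite strand. The other intronic peaks fall from 140.3 per Mb in bin 1 to 68 in bin 10, and members stay between 35.7 and 41.7.

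Members made up a growing part of intronic peaks away from the start, from 13.9% within 2 kb to 18.96% at 2 to 10 kb, 28.7% at 10 to 50 kb, 32.5% at 50 to 200 kb and 37.2% beyond 200 kb. Their median distance from the gene's start was 73.1 kb, against 47.9 kb for the other intronic peaks. Of the members whose intron has a number in the canonical transcript, 27.7% lay in intron 1, against 32.1% of the other intronic peaks. Counted per stretch, however, intron 1 stood above the rest: 16.7% of its stretches (16.3 to 17.01%) had a peak, and 12.7% (12.6 to 12.9%) of all others. The others lay in later introns or outside the introns of the canonical transcript. On the opposite strand the shares were 0.561% and 0.659%.

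At least 1 member was found in 7089 of the 20033 protein-coding genes, and in 6439 (48.7%) of the 13215 detected genes with an intron. The number per detected gene was 2.27 ± 5.15 (SD over genes), with a median of 0. It followed gene length, with means of 0.0875, 0.501, 1.55 and 6.95 in 4 classes of equal size from the shortest genes to the longest, and its Spearman correlation with the number of stretches in the introns was 0.80 across these genes. The 758 genes with at least 10 members held 43.7% of all members. In 949 detected genes (14.7% of those with a member) the tallest member had more reads than the tallest transcript-end peak. The same count was not made for the other intronic peaks, so it does not set members apart from them.

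The 12 genes with the most members were between 891.1 and 2474 kb long. RBFOX1, which encodes a neuronal splicing factor, led with 179 members among 350 intronic peaks (51.1%), and 28.1% of its 636 stretches had a peak. Its tallest member had 21 reads, and its tallest transcript-end peak 17. WWOX, which encodes an oxidoreductase at a common fragile site, had 71 members among 110 intronic peaks (64.5%), the highest share of the 12. MACROD2, an ADP-ribose hydrolase gene, followed with 53 of 94 (56.4%), and 10.97% of its 483 stretches had a peak. In AUTS2, 27.7% of 235 stretches had a peak, and in ASTN2, which encodes a protein of neuronal migration, 30.6% of 180. GPC6, for the proteoglycan glypican 6, had 73 members among 246 intronic peaks but no transcript-end peak. CCSER1 (67 members), LSAMP (66), RBMS3 (56), LINGO2 (54), PLCB1 (53) and the sarcoglycan gene SGCZ (71) completed the list, with members at 30.8 to 43.2% of their intronic peaks. In these 12 genes together the tallest members had 15 to 39 reads, and in 8 of them another intronic peak was taller than the tallest member.

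**Figure D5:**
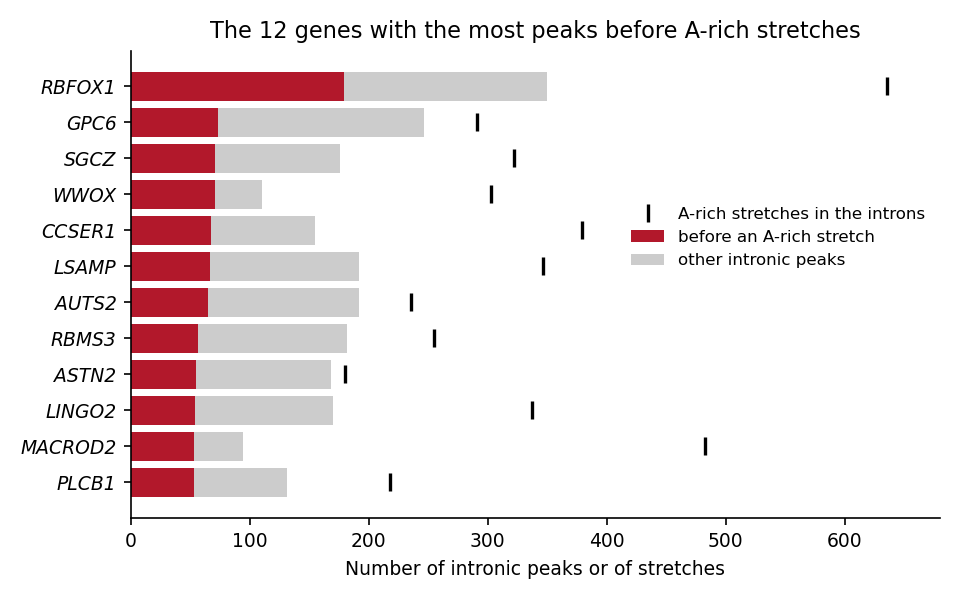
Number of members (red) and other intronic peaks (grey), and of A-rich stretches in the introns (black marks), on the x axis for the 12 genes with the most members. RBFOX1 stands apart with 179 members, and the number of stretches is above the number of intronic peaks in each gene.

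The share of stretches with a peak differed widely between genes. Among the 1471 detected genes with at least 40 stretches, its median was 14.3%, with 2.15% and 25% at the 10th and 90th percentiles. CUX2, a homeobox gene of neurons chosen here after its value was seen, had the highest share, 36.8% of 95 stretches, with 35 members of at most 22 reads and a transcript-end peak of 13 reads. No stretch had a peak in 69 of these genes. RPGRIP1, also chosen after its value was seen, was one of them, with 42 stretches on the gene strand, 2 intronic peaks and a transcript-end peak of 64 reads. Both intronic peaks had a stretch on the opposite strand. Transcript-end peaks were counted on either strand, and whether this one belonged to RPGRIP1 was not tested.

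Among gene lists, long neuronal genes held the most members. Of the 27 listed genes of synaptic adhesion and axon guidance, which had a median of 21 members a gene and a median length of 886.6 kb, 24 were detected. Members were 37.5% of the 1605 intronic peaks of these 24 (35.2 to 39.9%), and 29.8% over all detected genes, whose median length was 36.4 kb. LSAMP (66) and DSCAM (49), both cell adhesion molecules of neurons, had the most. Counted per stretch the 24 genes stood below the rest, with a peak at 10.96% of 5458 stretches (10.2 to 11.8%), against 13.5% over all detected genes. The 25 detected genes of ion channels and transmitter receptors had members at 31.3% of intronic peaks (28.6 to 34.05%) and a peak at 12.5% of 2763 stretches (11.3 to 13.8%), and both intervals held the share of all detected genes. Without RYR2 the share of stretches was 11.9% (10.7 to 13.2%). The calcium release channel RYR2 (45 members) and the potassium channel KCNQ5 (36) led that list. The 20 detected RNA-binding proteins had members at 33.0% of 1103 intronic peaks and a peak at 23.6% of 1543 stretches, but RBFOX1 alone held 179 of their 364 members. Without it the shares were 24.6% of 753 intronic peaks (21.6 to 27.8%) and 20.4% of 907 stretches (17.9 to 23.1%). The 18 detected neuroblastoma regulators and receptors had members at 24.0% of intronic peaks and a peak at 24.6% of their 350 stretches (20.4 to 29.3%). In that list, ALK, the receptor kinase mutated in neuroblastoma, had 35 members among 147 intronic peaks, and the homeobox gene MEIS2 had 18 among 45.

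DNA repair was represented by 28 genes of homologous recombination, the Fanconi anaemia pathway and the damage checkpoint. Members were 33.97% of their 368 intronic peaks (29.3 to 38.95%), an interval that held the 29.8% of all detected genes. Of their 764 stretches 16.2% had a peak (13.8 to 19.01%), against 13.5% over all detected genes. RAD51B, a gene of homologous recombination, had 37 members among 70 intronic peaks and FANCC, of the Fanconi anaemia core complex, 12 among 33, so these 2 long genes held 49 of the 125 members of the list. Without RAD51B members were 29.5% of the list's intronic peaks (24.6 to 34.9%), and 15.1% of its stretches had a peak (12.4 to 18.3%). Both intervals held the share of all detected genes. BARD1, the partner of BRCA1, had 3 members among 20 intronic peaks. The tallest, in intron 7 (chr2:214751163-214751431), had 19 reads, as many as the tallest other intronic peak, against 15 reads at the tallest transcript-end peak. The other BARD1 members, in introns 9 and 6, had 16 and 7 reads. BLM, the helicase mutated in Bloom syndrome, had 5 among 20. Its member in intron 1 (chr15:90732493-90732735) had 37 reads, above the 29 reads of its tallest transcript-end peak and the 19 of its tallest other intronic peak. This member had 18 A with a hexamer upstream. The remaining BLM members had 16, 12, 11 and 8 reads and no hexamer. BRCA1 had 4 among 13. Its tallest, in intron 2 (chr17:43123370-43123474), had 23 reads, against 26 at its tallest transcript-end peak and 22 at the tallest other intronic peak. The rest had 10, 10 and 8. None of the 4 BRCA1 members had a hexamer.

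The list of 25 genes of cleavage, polyadenylation and termination had members at 23.7% of 194 intronic peaks (18.3 to 30.2%). Of its 265 stretches 17.4% had a peak (13.3 to 22.4%). Both intervals held the share of all detected genes, 29.8% of intronic peaks and 13.5% of stretches. This list also included the genes of the 2 transcriptional kinases that THZ531 inhibits, which had the most members in it. CDK13 had 8 members among 32 intronic peaks and CDK12 7 among 15 (24.8 to 69.9%), and all 7 in CDK12 were Alu-like. PCF11, a termination factor that binds the RNA polymerase II tail, had 2 members among 4 intronic peaks, both in intron 9. The taller (chr11:83176737-83176846) had 12 reads, 20 A and a hexamer, and the lower 7 reads. The gene's tallest transcript-end peak had 57 reads and its tallest other intronic peak 59.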

How the data were processed

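IMR-32 cells were profiled by poly(A) 3′-seq (QuantSeq REV). According to the methods, the authors mapped trimmed reads to GRCh38 with STAR 2.5.1b, keeping reads with several places, merged all samples and called peaks with MACS2 2.1.1, with reads extended to 100 bp and no control. For each peak the deposited list gives the fold enrichment (a ratio), the −log10 p-value, the −log10 q-value and the summit. The deposited score column, made from the q-value, was not used. No column holds a single library, so no test between groups was made, and depth per library is unknown.

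Reads at the summit were solved from fold = (reads + 1) / (background + 1) and the Poisson tail, with a largest misfit of 0.000172 in −log10 p. Every peak of the list on chromosomes 1 to 22, X and Y was used, with no further cutoff (423 lay elsewhere). Annotation was Gencode 44 (the study used an earlier release). A-rich stretches were overlapping windows of 25 bases with at least 18 A in intron sequence, joined. A peak in several genes counted for the longest. Steps were tested on simulated data. For the search of stretches with a peak, the planted stretches were unbroken runs of 25 A that lay wholly past the peak edge. Stretches near 18 A or crossing the edge were not planted. Python 3.11.15, numpy 2.4.6, scipy 1.17.1 and pandas 2.3.3 were used.

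Named genes were the 12 with the most members, those of the 5 tallest members, the 2 with the most members in each of 6 lists, and BARD1, BLM, BRCA1 and PCF11. The members and lists were chosen with earlier results of these data known. Alternatives changed the cutoff, the A limit, the window, the annotation, the merging of peaks, the hexamers, the Alu-like limit and the chromosomes. Some sequences and genes are not reported here.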

Additional observations from a re-analysis of the deposited data

How the results depend on the processing

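Of 85 values computed under an alternative, 32 stayed within the counting interval of the reported share, the same median or 1.5 times the reported number, among them all those without chromosome 2, which holds MYCN, and with exons and transcript ends of protein-coding genes only. The values that moved are these, and the cause was not tested beyond the change each setting makes. With −log10 q of at least 5 there were 20179 members, 29.1% of intronic peaks, 2.25% on the opposite strand, a median of 11 reads, 12 reads in other intronic peaks, 34.6% with a hexamer, 54.2% Alu-like and 29.5% in intron 1. With −log10 q of at least 20 there were 370 members, 14.97% of intronic peaks, 1.46% on the opposite strand, a median of 23 reads, 29 reads in other intronic peaks, 62.2% with a hexamer, 35.95% Alu-like and 33.8% in intron 1. With at least 20 A the values were 16958 members, 15.97% of intronic peaks, 1.49% on the opposite strand, a median of 8 reads, 23.2% with a hexamer and 63.5% Alu-like. With at least 22 A they were 6822 members, 6.425% of intronic peaks, 0.714% on the opposite strand, a median of 8 reads, 16.9% with a hexamer, 68.02% Alu-like and 26.8% in intron 1. Windows within 100 bp past the edge gave 30.4% of intronic peaks, 3.63% on the opposite strand, 33.8% with a hexamer and 52.5% Alu-like. Windows on both sides of the edge gave 47733 members, 44.96% of intronic peaks, 4.7% on the opposite strand, 41.8% with a hexamer, 48.1% Alu-like and 28.8% in intron 1. Windows past the summit gave 13135 members, 12.4% of intronic peaks, 1.58% on the opposite strand, a median of 11 reads, 9 reads in other intronic peaks, 55.9% with a hexamer, 43.9% Alu-like and 31.8% in intron 1. Merging peaks closer than 200 bp gave 29.97% of intronic peaks. AATAAA and ATTAAA alone stood before 13.8% of members, and any hexamer 40 to 10 bp before the edge in 19.6%. With 5 shared words 46.1% were Alu-like. The share of stretches with a peak was 10.9% with every protein-coding gene counted and 8.74% with peaks of −log10 q 5 or more. The stretch was 7.83 to 12.9 times as frequent on the gene strand as on the opposite strand under all of them, and the median of members was below that of other intronic peaks under all but the windows past the summit.

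The list is 1 pooled set, without a difference between treatments or a spread between replicates, and intervals cover counting error only. The lowest peaks had 3 reads at the summit, and a stretch without a peak was not detectable here as the start of reads. Peaks carry no strand, which was taken from the annotation. For detected genes and the height of their transcript ends, a peak counted for every gene whose transcript-end window held it, on either strand. The ends of every annotated transcript were used, including any that lie inside the gene. Alu-like sequence was called from words shared with RN7SL1, since no repeat annotation was used here. No paired analysis was possible because no column of the deposited file belongs to a single library.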

Other observations

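Members also lay in genes with no detected 3′ end. There were 1453 members in 646 protein-coding genes without a transcript-end peak, GPC6 being the one with the most. Peaks with a stretch on the opposite strand and none on the gene strand numbered 2865, with a median of 7 reads at the summit against 9 for members. Over the 689 bins of 1 Mb with at least 60 intronic peaks, the share of members had a median of 30.4%, with 16.4% and 44.4% at the 5th and 95th percentiles. The share with a stretch on the opposite strand had a median of 2.17%, and its highest value was 15.7% (9.01 to 25.99%, 11 of 70 peaks) at chr17:47000001-48000000, a bin chosen after its value was seen.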
